A study of Rattus norvegicus with 4 samples.

Results

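The guide arms of the miR-30 family were described in small RNA libraries of rat liver. A microRNA (miRNA) hairpin yields a guide arm, which is loaded to repress messenger RNAs, and a minor arm from the opposite strand of the stem, written here with an asterisk or as -3p. The members were the names beginning with miR-30a, miR-30b, miR-30c, miR-30d or miR-30e that carry neither mark, and 5 of the 680 listed rat miRNA names met this rule. They are miR-30a, miR-30b-5p, miR-30c, miR-30d and miR-30e, and all 5 had reads in every library. The 6 minor arms of the same hairpins were set beside them. The labels give 2 samples of hepatic fibrosis tissue and 2 of normal hepatic tissue from rats. Strain, age, the means by which fibrosis was produced and whether the samples came from separate animals are not stated in the labels. Replicate 2 of the fibrosis group and replicate 2 of the normal group have identical values (0 of 680 differed), so they were counted once, as a duplicated library whose tissue its labels do not settle. This leaves 3 distinct libraries, called fibrosis 1 (fibrosis replicate 1), normal 1 (normal replicate 1) and the duplicate below, of which the first and second carry a single label.

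Members of the miR-30 family share a seed, the stretch at bases 2 to 8 of the miRNA with which it pairs to its targets, and so can repress overlapping sets of messenger RNAs. In liver and other organs they are known for repressing connective tissue growth factor and the transcription factor Snai1, both of which promote fibrosis, and they are expressed in many epithelial cells. miR-30a shares a locus with the hairpin miR-30c-2, miR-30e with miR-30c-1, and miR-30b with miR-30d, so a single mature miR-30c sequence is fed by a pair of hairpins.

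The mature sequences show what the members have in common and where their reads can be told apart. RefSeq sequences (GRCr8) were matched for 3 of the 5 guide arms and 3 of the 6 minor arms, and are given 5′ to 3′ with the seed in capitals.
miR-30a: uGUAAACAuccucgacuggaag
miR-30e: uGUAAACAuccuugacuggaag
miR-30c: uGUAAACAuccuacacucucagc
miR-30a*: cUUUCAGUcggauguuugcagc
miR-30c-1*: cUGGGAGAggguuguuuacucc
miR-30c-2*: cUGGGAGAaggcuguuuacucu
The 3 guide arms have the seed GUAAACA and are the same over their first 12 bases. Counted from base 1 at the 5′ end, miR-30a and miR-30e differ by the single substitution C13U, so how reads were shared between them depends on the authors' mismatch rule, which no source used here gives. miR-30d and miR-30b-5p had no matched sequence, so whether their reads could be confused with those of miR-30a was not checked. miR-30c differs from miR-30a by 5 substitutions (C13A, G14C, G18C, G19U and A20C) and is 23 bases long against 22. The minor arms carry other seeds, UUUCAGU in miR-30a* and UGGGAGA in both miR-30c minor arms, which differ from each other by 3 substitutions (G9A, U12C and C22U). Among the 724 mature sequences of the table, which hold no match for miR-30b-5p and miR-30d and so are not a full list, 4 names have the guide seed. The one of these outside the family, miR-384-5p, had 0 reads in each library.

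The libraries were scaled by the authors to totals of 6951148 reads in fibrosis 1, 7070374 in normal 1 and 6357069 in the duplicate, in reads per 1000000 reads (RPM). Reads on listed miRNAs made up 50.5% to 52.5% of these totals, and with 0 reads a level of 0.424 to 0.472 RPM is still possible. miR-122, the hepatocyte miRNA, stood at 243915 to 263140 RPM in the 3 libraries. Marker miRNAs of other cell types were also present. The 5 mesenchymal and stellate cell markers summed to 669 RPM in fibrosis 1, 466 RPM in normal 1 and 1009 RPM in the duplicate, and the 5 leukocyte markers to 47.2, 36.3 and 64.3 RPM. In the same order, miR-199a-3p made up 88.5%, 75.1% and 89.6% of the mesenchymal sum, and miR-142-5p 83.5%, 72.8% and 87.0% of the leukocyte sum. miR-214, miR-223 and miR-150 were also higher in fibrosis 1 than in normal 1. miR-143, miR-145, miR-199a-5p, miR-342-3p and miR-142-3p were lower there. The 7 hepatocyte markers summed to 253121, 273764 and 257062 RPM in the same order, and the 5 biliary and epithelial markers to 12.1, 11.9 and 8.65 RPM. No marker in these 4 lists was at 0 in all libraries, but miR-141 had a read in the duplicate alone.

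miR-30 guide arms were a small part of these libraries, and miR-30d and miR-30a supplied nearly all of it. The 5 members together held 1628 reads in fibrosis 1, 1820 in normal 1 and 1092 in the duplicate. Their share of the miRNA reads was 0.0464% in fibrosis 1 (95% exact binomial interval 0.0442 to 0.0487), 0.0498% in normal 1 (0.0476 to 0.0522) and 0.0327% in the duplicate (0.0308 to 0.0347). The share was lowest in the duplicate, whose interval lay below both others, while those of fibrosis 1 and normal 1 overlapped. Most miRNA reads in this liver tissue fell on miR-122 and let-7. Among the remaining reads the family held 1.14%, 1.15% and 0.857% in the same order. Its mean of 221 RPM put the family sum at rank 24 among the detected names when counted as 1 name, between miR-152 (296 RPM) and miR-101a (191 RPM). All intervals are for counting error alone, because reads that carry no molecular identifiers do not count molecules independently.

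miR-30d was the most abundant member in every library. It stood at 140 RPM in fibrosis 1, 151 RPM in normal 1 and 105 RPM in the duplicate, on 973, 1070 and 666 reads. miR-30a, the member that names the locus shared with miR-30c-2, stood at 77.4, 86.8 and 55.4 RPM in the same order, on 538, 614 and 352 reads. Both were highest in normal 1 and lowest in the duplicate. miR-30e, whose hairpin lies within Nfyc, the gene of a subunit of the transcription factor NF-Y, stood at 11.7, 10.2 and 6.92 RPM. Here fibrosis 1 was the highest, and its interval of 9.25 to 14.5 RPM overlapped that of normal 1 (7.97 to 12.8).

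miR-30c and miR-30b-5p were the rare members. miR-30c stood at 3.45 RPM in fibrosis 1, 5.09 RPM in normal 1 and 2.99 RPM in the duplicate, on 24, 36 and 19 reads, although a pair of hairpins can supply it. miR-30b-5p stood at 1.73, 3.96 and 1.73 RPM, on 12, 28 and 11 reads. The order miR-30d, miR-30a, miR-30e, miR-30c, miR-30b-5p was the same in the 3 libraries, as the plot of levels by library shows. The first 3 steps of this order had counting intervals of the ratio that excluded 1 in each library, and the last did not: miR-30c over miR-30b-5p was 2.0 in fibrosis 1 (0.962 to 4.39), 1.29 in normal 1 (0.763 to 2.19) and 1.73 in the duplicate (0.781 to 4.02). These levels count whole reads per miRNA, whose lengths differ by at most a base among the members matched. How evenly the library preparation captured each sequence was not tested.

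**Figure D1:**
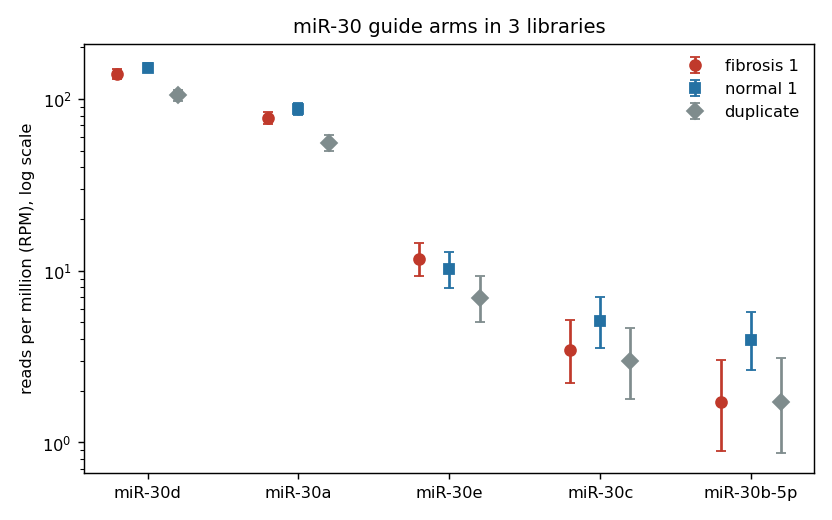
RPM (log scale) of the 5 miR-30 guide arms in fibrosis 1, normal 1 and the duplicate; each point is 1 library and bars are 95% exact binomial counting intervals. miR-30d (105 to 151 RPM) and miR-30a (55.4 to 86.8 RPM) stand above the other members in each library, and the duplicate is the lowest for both.

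The shares of miR-30d and miR-30a in the family moved less between libraries than the family level did. miR-30d made up 59.8% of the family reads in fibrosis 1 (57.3 to 62.2), 58.8% in normal 1 (56.5 to 61.1) and 61.0% in the duplicate (58.0 to 63.9). miR-30a made up 33.0% (30.8 to 35.4), 33.7% (31.6 to 36.0) and 32.2% (29.5 to 35.1). These intervals overlap between all libraries. The ratio of miR-30d to miR-30a was 1.81 (1.63 to 2.01) in fibrosis 1, 1.74 (1.58 to 1.93) in normal 1 and 1.89 (1.66 to 2.16) in the duplicate. Because miR-30d had no matched sequence, whether reads were shared between these members was not checked.

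Ratios between members were compared between libraries with Fisher's exact test on reads, two-sided. It compares 2 libraries and not the conditions, and p-values were adjusted by Benjamini-Hochberg over 18 comparisons of 6 ratios that were chosen after the values had been seen. Of the 18, 3 passed at an adjusted p under 0.05, all of them ratios that involve minor arms and the duplicate, given further on. For miR-30a over miR-30d the odds ratio was 0.964 (0.831 to 1.12) between fibrosis 1 and normal 1, 0.921 (0.780 to 1.09) between the duplicate and normal 1, and 1.05 (0.883 to 1.24) between fibrosis 1 and the duplicate. None of these 3 intervals excluded 1, and none reached beyond a 1.5-fold change. For miR-30e over miR-30a, which differ by 1 base, the odds ratios were 1.28 (0.903 to 1.83), 1.07 (0.699 to 1.61) and 1.20 (0.803 to 1.83) in the same order, with intervals too wide to exclude a 1.5-fold difference. miR-30b-5p and miR-30c together made up 2.21% of the family reads in fibrosis 1 (1.55 to 3.05), 3.52% in normal 1 (2.72 to 4.47) and 2.75% in the duplicate (1.86 to 3.90). Against the other 3 members their odds ratio between fibrosis 1 and normal 1 was 0.621 (0.398 to 0.954), with Fisher's exact p = 0.0251 and an adjusted p of 0.113, so it did not pass the correction.

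**Figure D2:**
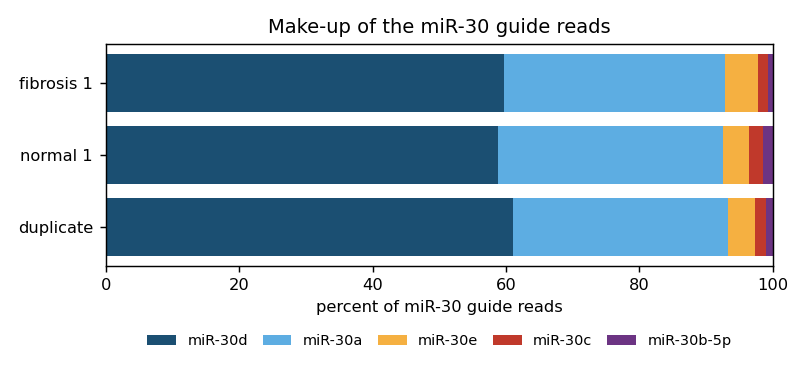
Percent of the miR-30 guide reads (horizontal axis, from 0) taken by each of the 5 members in each of the 3 libraries. miR-30d (58.8% to 61.0%) and miR-30a (32.2% to 33.7%) fill most of each bar, and the bars differ little.

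Fibrosis was compared with normal tissue to ask whether the family differs between the diseased and the healthy liver. In fibrosis 1 the family sum was 234 RPM and in normal 1 it was 257 RPM, a ratio of 0.910 (95% counting interval 0.850 to 0.973). The duplicate, at 172 RPM, lay below both. miR-30d (0.925, 0.847 to 1.01), miR-30a (0.891, 0.792 to 1.002) and miR-30c (0.678, 0.387 to 1.17) had ratios below 1 with intervals that included it, and miR-30e was on the other side (1.14, 0.823 to 1.59). Only miR-30b-5p had an interval that excluded 1 (0.436, 0.202 to 0.885), on 12 against 28 reads. One of 5 members thus lay below 1 beyond counting error, where 22.4% of the 147 miRNAs whose mean reached 1 RPM in this pair did, so the family's share was near the background. With 1 library on each side the difference has no replicate check, and in bulk tissue fewer cells of a type cannot be told apart from less RNA per cell. The family ratio was 0.994 when miR-122 and let-7 were left out of the scaling total, with an interval of 0.929 to 1.06, and the intervals under TMM scaling and DESeq2 size factors also included 1. Scaled to the reads on listed miRNAs the ratio was 0.932 (0.871 to 0.997), and with the minor arms added it was 0.923 (0.867 to 0.982).

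No miR-30 guide arm passed a test of fibrosis against normal tissue in either placement of the duplicate. Of the 294 miRNAs tested, only 148 reached a mean of 1 RPM. Shares over all 294 thus rest in part on names with very few reads. Each placement sets 2 libraries against 1, with 1 residual degree of freedom and the lone library assumed to vary like the others, so the lack of a call says little. With that library counted as fibrosis, limma on log2(RPM + 1) called 0 of 294 miRNAs (0%) at an adjusted p under 0.05. Without adjustment 36 (12.2%) had a p under 0.05, none of them a miR-30 guide arm. The fitted log2 differences, fibrosis minus normal, were below 0 for all 5 members, at -0.32 for miR-30d (SE 0.28), -0.40 for miR-30a (SE 0.32), -0.16 for miR-30e (SE 0.46), -0.53 for miR-30c (SE 0.22) and -0.86 for miR-30b-5p (SE 0.20). The median of the 5 members was -0.40, beside -0.02 over all 294 miRNAs, of which 51.0% were below 0. Adding 1 RPM before the logarithm pulls the differences of the rarest names toward 0, so this median is a weak background. With the library counted as normal tissue, limma again called 0 (0%), 27 (9.18%) had an unadjusted p under 0.05, and no guide arm was among them. The log2 differences were then above 0 for miR-30d (0.15, SE 0.35), miR-30a (0.16, SE 0.42) and miR-30e (0.43, SE 0.37) and below 0 for miR-30c (-0.15, SE 0.45) and miR-30b-5p (-0.43, SE 0.60), with adjusted p-values of 0.891 to 0.951. The direction of the abundant members thus turned with the label given to 1 library. edgeR's quasi-likelihood test and DESeq2 on the recovered reads called 0 of the 5 members in either placement, with 0 at an unadjusted p under 0.05. Over all 294 miRNAs edgeR called 0 (0%) in both placements, and an unadjusted p under 0.05 was found for 9 (3.06%) and 1 (0.340%). DESeq2 called 1 (0.340%), miR-146b, named after its values were seen, with the duplicate as fibrosis and 0 (0%) with it as normal, and 4 (1.36%) and 0 (0%) without adjustment, so the absence of members is near the background. Nothing in the labels says that replicates were separate animals, so these p-values measure only the spread between libraries.

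The family sum differed most between the duplicate and the other libraries. Its family sum was 0.667 times that of normal 1 (0.619 to 0.720), and fibrosis 1 stood 1.36 times above it (1.26 to 1.47). For the sum, both possible replicate pairs therefore differed more than fibrosis 1 and normal 1 did. The rare members did not follow this, as miR-30b-5p was at 0.998 (0.403 to 2.50) and miR-30c at 1.16 (0.607 to 2.23) for fibrosis 1 over the duplicate. Against normal 1, miR-30d was at 0.692 (0.627 to 0.763), miR-30a at 0.638 (0.558 to 0.728) and miR-30b-5p at 0.437 (0.196 to 0.905) times its level, while the intervals of miR-30c (0.587, 0.318 to 1.05) and miR-30e (0.680, 0.456 to 1.003) just included 1. These 3 of 5 members below 1 beyond counting error stand beside 29.7% of 148 miRNAs for this pair. Fibrosis 1 was above the duplicate for miR-30d (1.34, 1.21 to 1.48), miR-30a (1.398, 1.22 to 1.60) and miR-30e (1.68, 1.15 to 2.49), beside 22.4% of 147 miRNAs. The duplicate was the lowest of the 3 for 4 of the 5 members, where it was the lowest for 44.9% of the 138 miRNAs outside the family whose mean reached 1 RPM. Its median ratio to normal 1 was 0.638 over the members and 0.940 over those 138 miRNAs. Under the 5 scalings tried, its family ratio to normal 1 ran from 0.656 to 0.744. In this library the mesenchymal and leukocyte marker sums given above were the highest of the 3, as were the endothelial (10.9 RPM) and striated muscle (38.2 RPM) sums, while the biliary and epithelial sum and the erythroid sum (2.04 RPM) were the lowest. miR-199a-3p made up 89.6% of the mesenchymal sum and miR-142-5p 87.0% of the leukocyte sum there, and miR-499 gave 31.8 RPM of the striated muscle sum. Of the muscle list, miR-1 and miR-206 were also highest in the duplicate, and miR-133a and miR-133b had reads in normal 1 alone. Other markers of these lists went the other way, with miR-199a-5p, miR-145 and miR-342-3p lowest in the duplicate. The part of other cell types in the lower miR-30 level was not tested.

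**Figure D3:**
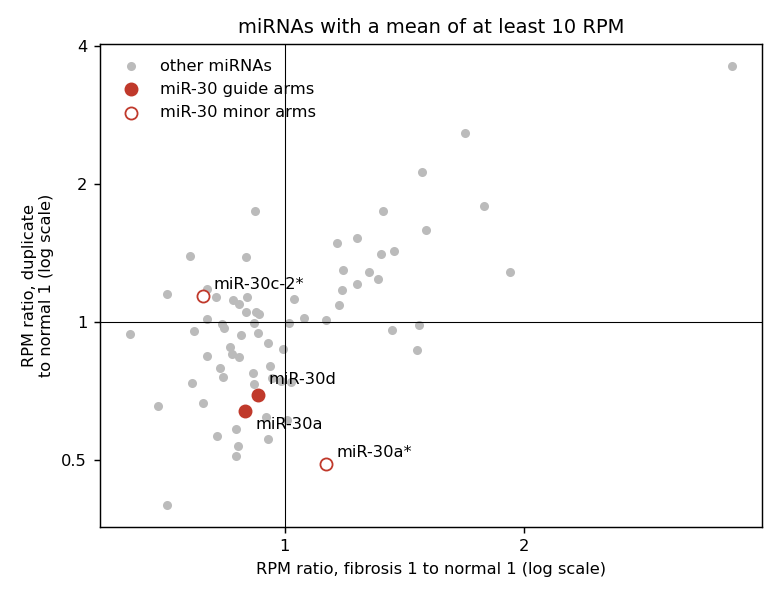
RPM ratios to normal 1 (both axes on log scales) of fibrosis 1 (horizontal) and the duplicate (vertical) for miRNAs whose mean reached 10 RPM; each point is 1 miRNA. miR-30a (0.891 and 0.638) and miR-30d (0.925 and 0.692) lie close together, miR-30a* (1.13 and 0.488) lies lower and miR-30c-2* (0.789 and 1.13) on the other side of 1 for the duplicate.

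For this pair of libraries the sums of 7 other families lay nearer to 1. The ratio of the duplicate to normal 1 was 0.910 (0.887 to 0.933) for the miR-29 family, known for repressing collagen genes, 0.931 (0.899 to 0.964) for miR-26, and 0.805 (0.746 to 0.868) for the miR-10, miR-99, miR-100 and miR-125 group, the lowest of the 7. The highest was 1.11 for let-7 with miR-98. No interval of the 7 reached down to 0.720, the upper end of the miR-30 interval. Single miRNAs outside the miR-30 family did fall as far. Of the 138 whose mean reached 1 RPM, 26.8% were at least 1.5-fold lower in the duplicate than in normal 1, beside 3 of the 5 members. The miR-29 sum is mostly miR-29a, at 0.933, while miR-29b (0.583) and miR-29c (0.664) were as low as miR-30a and miR-30d. Between fibrosis 1 and normal 1 the miR-30 ratio of 0.910 was closer to 1 than those of 6 of the 7 families, which ran from 0.808 for the miR-15 and miR-16 group to 1.48 for miR-181. miR-181 also differed more between fibrosis 1 and the duplicate (1.55) than miR-30 did. Among the 69 miRNAs outside the family whose mean reached 10 RPM, those whose log2 levels over the 3 libraries, centred on their mean, lay nearest to the family sum were miR-221 (distance 0.10), miR-185 (0.11) and miR-26a (0.12). miR-26a, for example, stood at 420 RPM in fibrosis 1, 443 RPM in normal 1 and 274 RPM in the duplicate. The miR-26 sum thus also hides a member that followed miR-30. With 3 libraries this is a description of likeness.

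The balance of guide and minor arm differed between the hairpins. The hairpins of miR-30a and miR-30c-2, neighbours on the plus strand of chromosome 9 in GRCr8, are shown with the listed guide arm first and the minor arm second in capitals, since their arms behaved in opposite ways.
Mir30a: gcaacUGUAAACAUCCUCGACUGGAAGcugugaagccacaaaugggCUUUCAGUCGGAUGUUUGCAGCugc
Mir30c2: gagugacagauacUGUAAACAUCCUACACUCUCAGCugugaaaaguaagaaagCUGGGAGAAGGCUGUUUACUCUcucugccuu
From the miR-30a hairpin the guide arm prevailed. miR-30a* stood at 22.2 RPM in fibrosis 1, 19.7 RPM in normal 1 and 9.60 RPM in the duplicate, and the ratio of guide to minor arm was 3.49 (2.92 to 4.21), 4.42 (3.67 to 5.35) and 5.77 (4.39 to 7.70). miR-30e prevailed over miR-30e* in the same way, by 3.38 (2.12 to 5.57), 3.43 (2.08 to 5.87) and 6.29 (2.81 to 16.5). For miR-30d the minor arm was hardly seen, with 0, 2 and 0 reads.

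For miR-30c the arm named as minor exceeded the arm named as guide. miR-30c-2* stood at 10.9 RPM in fibrosis 1, 13.9 RPM in normal 1 and 15.7 RPM in the duplicate, on 76, 98 and 100 reads. It outnumbered miR-30c by 3.17 (1.98 to 5.24), 2.72 (1.84 to 4.11) and 5.26 (3.20 to 9.11), and the miR-30c reads could come from the other hairpin as well. miR-30c-1*, the minor arm of that other hairpin, had only 6, 5 and 11 reads. miR-30b-3p had 20, 18 and 22 reads against 12, 28 and 11 of miR-30b-5p, and the intervals of their ratio included 1 in each library. Among all names listed both with and without an asterisk and holding at least 20 reads over the 3 libraries, the asterisk form was the higher in every library for 12 of 83 (14.5%). Summed over miR-30b and miR-30c, guide to minor arm reads stood at 0.353 (0.234 to 0.521), 0.529 (0.384 to 0.722) and 0.226 (0.146 to 0.337), and over miR-30a, miR-30d and miR-30e at 8.94 (7.66 to 10.5), 10.8 (9.22 to 12.8) and 15.6 (12.2 to 20.3). These sums were chosen after the values had been seen, and 74.5% to 81.0% of the minor arm reads of the first group were miR-30c-2*.

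**Figure D4:**
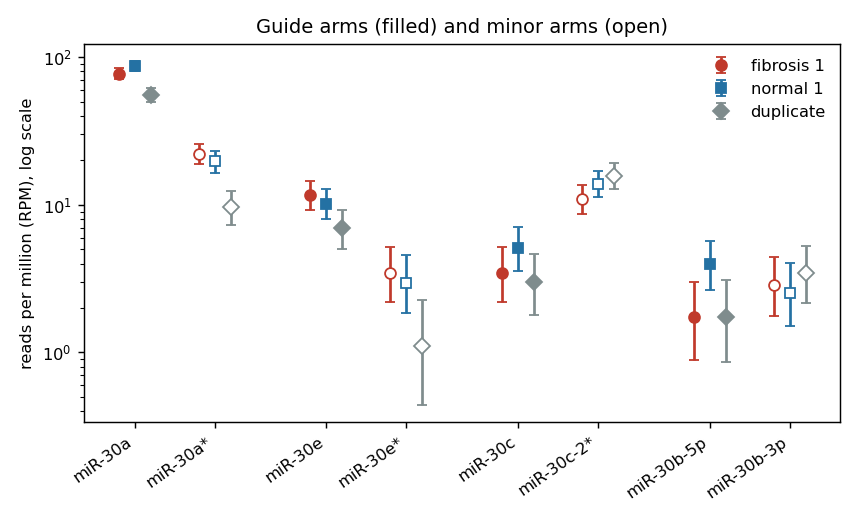
RPM (log scale) of guide arms (filled) and minor arms (open) in the 3 libraries, with 95% exact binomial counting intervals; each point is 1 library, and miR-30d and miR-30c-1* are left out. miR-30a and miR-30e lie above their minor arms, miR-30c lies below miR-30c-2* in each library, and the duplicate is lowest for miR-30a* (9.60 RPM) and highest for miR-30c-2* (15.7 RPM).

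The neighbouring minor arms miR-30a* and miR-30c-2* did not move together in the duplicate. There miR-30a* was below both other libraries, while miR-30c-2* was above fibrosis 1 beyond counting error but not above normal 1. miR-30a* was at 0.488 times its level in normal 1 (0.355 to 0.664), and fibrosis 1 stood 2.31 times above the duplicate (1.71 to 3.16). miR-30c-2* was at 1.13 times its level in normal 1 (0.850 to 1.52), and fibrosis 1 was at 0.695 times the duplicate (0.509 to 0.946). The ratio of miR-30c-2* to miR-30a*, which does not depend on the scaling, was thus 0.494 (0.370 to 0.654) in fibrosis 1, 0.705 (0.539 to 0.920) in normal 1 and 1.64 (1.18 to 2.29) in the duplicate. Its odds ratio was 2.32 (1.51 to 3.58) between the duplicate and normal 1, with an adjusted p of 0.000578 from Fisher's exact test over the 18 comparisons. Between fibrosis 1 and the duplicate it was 0.302 (0.193 to 0.468), with an adjusted p of 3.44e-07 from the same exact test. Between fibrosis 1 and normal 1 it was 0.701 (0.471 to 1.04), with an adjusted p of 0.198 by Fisher's exact test. The guide to minor arm ratio of miR-30a passed the correction in 1 of the 3 pairs, fibrosis 1 against the duplicate, with an odds ratio of 0.606 (0.430 to 0.846) and an adjusted p of 0.0132 by Fisher's exact test. The ratio of miR-30c-2* to miR-30c passed in none of the pairs, and the smallest adjusted p of Fisher's exact test was 0.168, for the duplicate against normal 1. These tests take the reads of single libraries as independent, and the adjustment does not cover the choice of ratios after their values had been seen. In the limma fits 0 of the 6 minor arms passed, and 1 had an unadjusted p under 0.05 with the duplicate counted as fibrosis: miR-30d*, which rests on 2 reads in normal 1. The shares over all 294 miRNAs, given above, are a weak background here. Only 148 of those names reached a mean of 1 RPM.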

How the data were processed

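Libraries were built from total RNA of rat livers with Illumina's Small RNA Sample Prep Kit according to the labels' protocols, and CASAVA 1.4 and build rn5 are named in the submitters' processing notes. How reads were aligned, annotated and shared between similar miRNAs is not given in the sources used here. The deposited values are RPM that the authors computed. Their smallest steps are single reads, so reads and totals were recovered, with 100% of values above 0 whole within 0.01 reads. Groups came from the tissue label.

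Shares and ratios carry exact (Clopper-Pearson) 95% intervals from Python 3.11.15 and scipy 1.17.1. limma 3.58.1 (R 4.3.3) was run on log2(RPM + 1), trended, with p-values adjusted by Benjamini-Hochberg over the 294 miRNAs seen in any library, once for each placement of the duplicated library, and was tested on simulated data. edgeR 4.0.16 and DESeq2 1.42.0 on recovered reads, other scalings, pseudocounts, filters and left-out libraries were alternatives. The named miRNAs were all guide and minor arms of the family, the 3 most like the family sum, those next to it in level, and any past a threshold. The members and lists were chosen with earlier results of these data known. No genome sequence was used, and sequences came from RefSeq tables matched by name.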

Additional observations from a re-analysis of the deposited data

How the results depend on the processing

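With 2 distinct libraries under single labels, what can be said of the tissues is limited by the number of libraries, and for miR-30b-5p, miR-30c and their minor arms also by depth, with 5 to 100 reads a library. The number of miRNAs called by limma stayed at 0 under the pseudocounts of 0.5 and 10, the filter, both rescalings and the edgeR test. DESeq2 called 1, miR-146b, which is outside the family, with the duplicate counted as fibrosis, and 0 with it counted as normal; the cause was not tested. The fit of all 4 files as labelled and the same fit with the replicate number as a block each called 0. Both put the duplicate in each group, which shrinks every difference between the groups, so their lack of calls says little. The replicate numbers pair no samples in the labels, and the second pair is a single library, so this block says little. Leaving out a library in a limma fit leaves no residual degrees of freedom and was not run.

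The family ratio of fibrosis 1 to normal 1 was 0.994 without miR-122 and let-7 in the total, and that of miR-30d 1.01. Replacing fibrosis 1 or normal 1 by the duplicate gave family ratios from 0.667 to 1.36, with the direction turned at 1.36. It gave 0.638 to 1.398 for miR-30a, 0.692 to 1.34 for miR-30d and 0.680 to 1.68 for miR-30e. For miR-30b-5p it gave 0.437 to 0.998, and for miR-30c 0.587 to 1.16. Among the members, only miR-30b-5p had a main interval that excluded 1. The family share in fibrosis 1, normal 1 and the duplicate was 0.0234%, 0.0257% and 0.0172% of all scaled reads, 1.14%, 1.15% and 0.857% of miRNA reads without miR-122 and let-7, and 0.0544%, 0.0576% and 0.0387% with the minor arms. The guide to minor arm ratio, 5.81, 6.43 and 5.43 over the family, was 1.99, 3.43 and 3.14 as a median over members with both arms. In normal 1 that median includes miR-30d, which has 2 minor arm reads there. Over the 4 other members, an alternative chosen after seeing the data, it was 1.99, 2.49 and 3.14. Of 82 alternative values in all, 55 stayed within the interval of the main value or on the same side of the threshold. This tally says little about stability. It counts the same fits of all 4 files under both placements. It also counts member shares without miR-30b-5p, which holds only 0.737% to 1.54% of the family reads and could hardly move them.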
